A study of Homo sapiens with 4 samples.

Results

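The genes described here are 10 building blocks of cell junctions: the desmosomal genes DSP, JUP, PKP2, PKP3, PKP4, DSG2, DSC2 and DSC3, and the tricellular junction genes LSR and MARVELD2. They were chosen by symbol, and all 10 were found among the 20252 rows of the deposited table. Poly(A) RNA had been sequenced from the human lung adenocarcinoma line H2030 in 2 libraries labelled control vector (vector libraries below) and 2 labelled GALNT3 overexpression (OE libraries below). GALNT3 is a Golgi transferase that places the first sugar of mucin-type O-glycans. Both groups had been grown for 2 days in RPMI with 10% serum at passages 5 to 10, with no other treatment recorded. The sources used here do not give the construct or say whether each line was 1 clone or a pool. Nothing ties the libraries to separate cultures, so the spread behind each p-value may be technical.

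Desmosomes are spot-like junctions that tie the keratin filaments of neighbouring epithelial cells to each other. Their cadherins, the desmogleins and desmocollins, bind across the gap between cells. Inside the cell, plakoglobin and the plakophilins link the cadherin tails to desmoplakin, and desmoplakin holds the filaments. Where 3 cells meet, tight junctions are sealed by a special complex in which LSR (angulin-1) recruits MARVELD2 (tricellulin). In lung epithelium both kinds of junction serve cohesion and barrier.

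Values are FPKM (fragments per kilobase of transcript and per mapped fragments of the library), so levels can be set side by side between genes. GALNT3 was at 4.34 and 5.34 FPKM in the vector libraries, and at 0.0164 and 0 FPKM in the OE libraries. The values listed for the targeted gene thus stood opposite to its label, and every direction below, given between the libraries as labelled, would turn if the labels were exchanged. The table broke alphabetical order at 2615 rows, those of GALNT3 and DSP included. Of 153 genes (GALNT3, the members and the gene lists used below), 36 were out of order. They included EPCAM, CLDN4, CDH1, CDH5, DSC1, ILDR2, KRT7, KRT15, ITGB4, PRKCA, KLF4, ELF3, COL3A1 and CD68. Whether the symbols of such rows were still joined to their own values was not tested. The rows of RPL21 and of the nearest profiles named below were not checked for order. Relative depth, read from the steps of low values, ran from 0.966 to 1.07, while the total number of reads is unknown. Of 7 epithelial markers, only the keratins KRT8 (109 to 145 FPKM) and KRT18 (331 to 439 FPKM) had a mean of 1 FPKM or more. EPCAM was at 0.459 to 1.40 FPKM, CLDN4 at 0.157 to 0.368 FPKM and CDH1, the epithelial cadherin, at 0.0495 to 0.209 FPKM, and KRT19 and CLDN7 were listed at 0. NKX2-1, a lung lineage factor, did not exceed 0.0764 FPKM. A value of exactly 0 can be a failed estimate, since the ribosomal protein gene RPL21 had 0 in vector replicate 1 and OE replicate 2 but 70.7 FPKM in vector replicate 2 and 124 FPKM in OE replicate 1.

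No tested member passed between the groups, and the values differed in size and sign from member to member. DSP, PKP2 and LSR had values 1.59, 1.42 and 1.25 times as high in the OE libraries by their means, JUP 0.827 times, and PKP3 and DSG2 had ratios of 0.990 and 0.994. Of the 10 members, 8 reached a mean of 1 FPKM and were tested, and 0 passed at an adjusted p of 0.05 (limma), where 0.5% of all tested genes passed (55 of 10998). At an unadjusted p below 0.05 there were 3 members, DSP, PKP2 and LSR, all with the larger values in the OE libraries, against 7.34% of all tested genes in either direction and 3.62% in that direction. Both OE libraries lay above both vector libraries in 4 of the 8 tested members, against 20.9% of tested genes, and below both in 0, against 15.3%. The median log2 difference was 0.12 over the 8 members and 0.02 over all tested genes. PKP2 and LSR had been singled out in an earlier look at these data, so these counts are descriptions and no independent evidence.

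**Figure D1:**
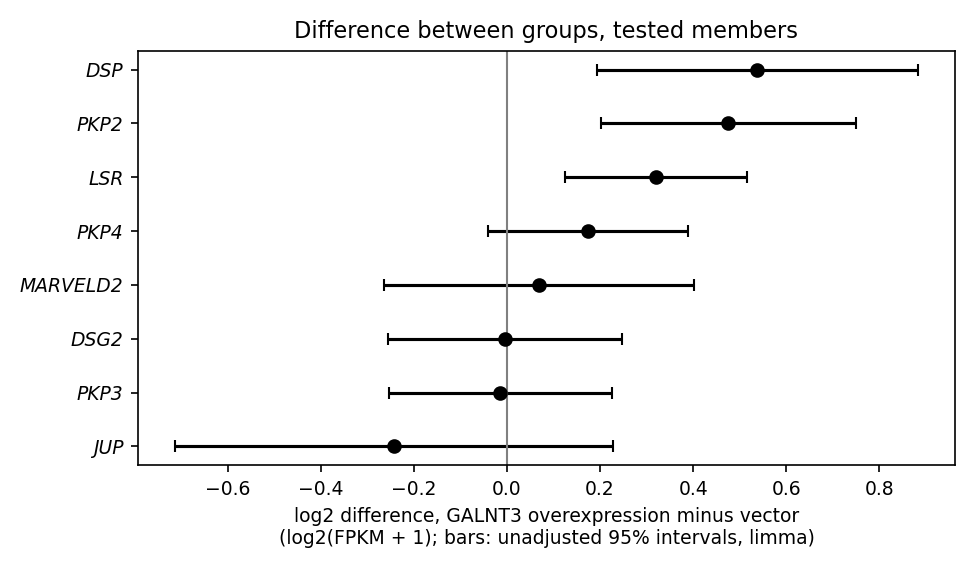
Log2 difference (OE minus vector, on log2(FPKM + 1)) of the 8 tested members, with points for the estimate and bars for limma's unadjusted 95% interval. The intervals of DSP, PKP2 and LSR lie above 0, and those of PKP4, MARVELD2, DSG2, PKP3 and JUP include 0.

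Promoter sequence was matched in RefSeq (GRCh38.p14) for 8 of the 10 members, DSC2, DSC3, DSG2, DSP, JUP, LSR, MARVELD2 and PKP4, in 11 windows of 300 bases reaching from 250 bases before to 50 bases after a start site. The 3 windows below are shown because DSP and LSR were among the members whose libraries did not overlap between groups, while DSG2 was level between them. Capitals mark CAGGTG, the E-box read by ZEB and SNAI repressors, on either strand (CACCTG on the other). All are on the plus strand, at chr6:7541421-7541720 for DSP, chr18:31497927-31498226 for DSG2 and chr19:35248752-35249051 for LSR.
DSP: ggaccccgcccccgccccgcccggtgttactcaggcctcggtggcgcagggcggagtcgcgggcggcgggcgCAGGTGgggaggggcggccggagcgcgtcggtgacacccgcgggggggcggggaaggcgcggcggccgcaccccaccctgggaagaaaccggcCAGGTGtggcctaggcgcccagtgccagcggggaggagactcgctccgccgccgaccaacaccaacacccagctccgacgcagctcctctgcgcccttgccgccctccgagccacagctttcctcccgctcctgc
DSG2: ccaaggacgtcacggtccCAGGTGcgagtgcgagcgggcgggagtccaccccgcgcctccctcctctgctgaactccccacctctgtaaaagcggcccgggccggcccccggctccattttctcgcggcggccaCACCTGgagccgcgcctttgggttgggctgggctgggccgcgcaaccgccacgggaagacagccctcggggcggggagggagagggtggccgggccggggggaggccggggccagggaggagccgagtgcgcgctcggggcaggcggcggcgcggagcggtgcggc
LSR: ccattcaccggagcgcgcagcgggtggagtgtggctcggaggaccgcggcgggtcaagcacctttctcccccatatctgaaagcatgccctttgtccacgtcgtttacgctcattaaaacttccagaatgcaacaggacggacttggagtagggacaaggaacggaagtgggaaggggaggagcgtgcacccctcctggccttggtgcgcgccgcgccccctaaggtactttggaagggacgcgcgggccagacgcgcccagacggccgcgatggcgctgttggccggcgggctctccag

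DSP held CAGGTG 178 and 85 bases before its start site, and DSG2 held it 232 and 116 bases before. LSR had no match in its window. Over the members, 4 of 11 windows held the letters (DSP, DSG2, 1 of the JUP windows and 1 of the DSC2 windows), against 20.6% of 35116 RefSeq windows of the same length. The grainyhead-like motif AACCGGTT and the AP-1 motif TGANTCA, also searched on both strands, were in 0 of the 11 windows, against 0.134% and 7.71% of all windows. No matches overlapped. The members' windows were GC-rich, at 60.7% to 77.0%, and all 11 were above the median of all windows (58.7%). A match of letters is a description and not a bound site.

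The order of levels was nearly fixed over the 4 libraries. LSR was the most abundant, then JUP, then PKP3 and PKP4, then PKP2, DSG2, DSP, MARVELD2 and DSC2, with DSC3 listed at 0 throughout. PKP3 and PKP4 alone changed places, PKP3 being above PKP4 in both vector libraries and below it in both OE libraries. In the vector libraries the ranges of 3 pairs of neighbours overlapped: PKP3 with PKP4, PKP2 with DSG2, and DSP with MARVELD2. In the OE libraries PKP2 was apart from DSG2 and DSP from MARVELD2, while PKP3 and PKP4 all but touched, with both edges at 17.5 FPKM.

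**Figure D2:**
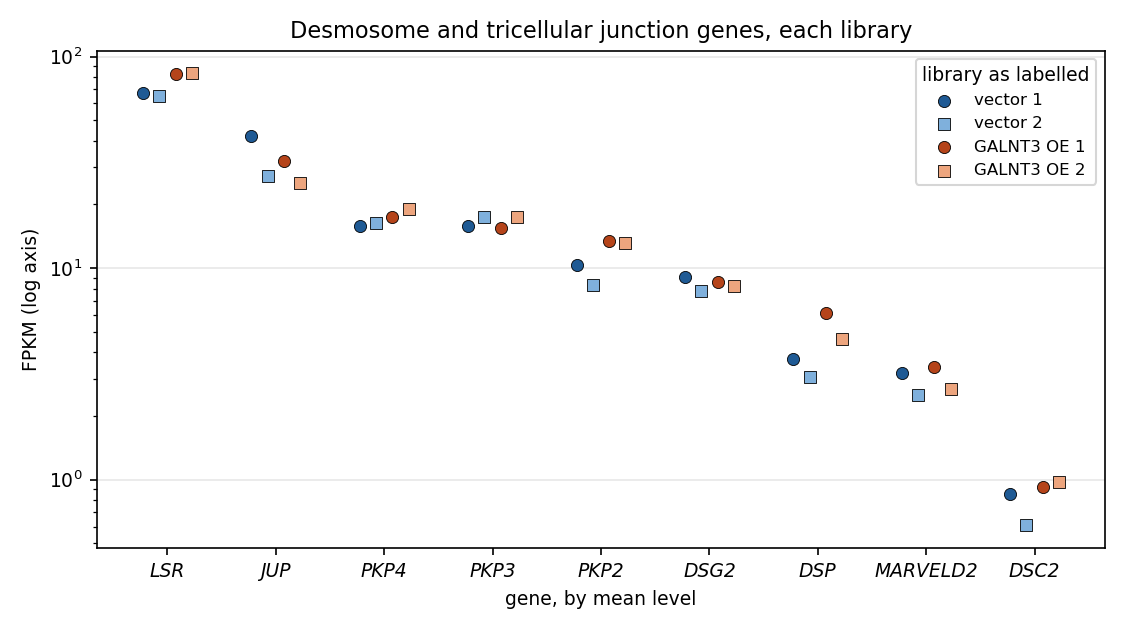
FPKM (log axis) of 9 members in each of the 4 libraries, ordered by mean level, with 1 point per library, blue for vector and orange for GALNT3 overexpression (OE), circles for replicate 1 and squares for replicate 2. DSC3, listed at 0 in every library, is not drawn. The orange points lie above both blue ones for LSR, PKP4, PKP2, DSP and DSC2, while the orange and blue ranges overlap for JUP, PKP3, DSG2 and MARVELD2.

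Desmoplakin, encoded by DSP (chromosome 6, 7541575 to 7586717, GENCODE 29 on GRCh38), is the plakin that anchors keratin filaments to the desmosomal plaque. DSP was at 3.72 and 3.06 FPKM in the vector libraries and at 6.16 and 4.65 FPKM in the OE libraries. The groups did not overlap, and the ratio of their means, as labelled, was 1.59. The difference on the log2(FPKM + 1) scale, which understates changes of low genes, was 0.54 ± 0.15 (SE, n = 2 against 2; 95% interval 0.19 to 0.88), and it did not pass the threshold of 0.05 (limma, adjusted p = 0.347 over 10998 genes). DSP is the 1 member whose row was out of alphabetical order.

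Plakoglobin, encoded by JUP (chromosome 17, 41754604 to 41786931), is the armadillo protein that binds the desmosomal cadherins and also the classical cadherins. JUP was at 42.3 and 27.3 FPKM in the vector libraries and at 32.2 and 25.3 FPKM in the OE libraries. The groups overlapped, and the 2 vector libraries were further apart than the group means (34.8 ± 11 and 28.8 ± 4.9 FPKM, SD). Its log2 difference was -0.24 ± 0.20 (SE, n = 2 against 2; 95% interval -0.71 to 0.23; limma, adjusted p = 0.877). Without vector replicate 1 the difference was 0.064. There were 11.4 and 8.93 JUP per DSP (ratio of FPKM) in the vector libraries and 5.23 and 5.45 in the OE libraries. These ratios did not overlap between groups, but with 2 libraries against 2 an exact two-sided permutation test cannot go below the p of 0.333 found here.

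The plakophilins are armadillo proteins that bind desmoplakin and gather it at the plaque. PKP2 (chromosome 12, 32790745 to 32896840), the plakophilin of simple epithelia and heart, was at 10.3 and 8.32 FPKM in the vector libraries and at 13.5 and 13.1 FPKM in the OE libraries. Both of the latter were above both of the former, with a log2 difference of 0.48 ± 0.12 (SE, n = 2 against 2; 95% interval 0.20 to 0.75), and PKP2 did not pass (limma, adjusted p = 0.254). This was the smallest adjusted p among the members.

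PKP3 (chromosome 11, 392614 to 404908), a plakophilin found in most epithelia, was at 15.9 and 17.5 FPKM in the vector libraries and at 15.5 and 17.5 FPKM in the others. The groups overlapped almost fully. Its FPKM came out as whole fragments in every library (within 0.005): 905 and 918 in the vector libraries, 803 and 898 in the others. The depth-corrected ratio of OE over vector was 0.992 (95% exact interval 0.928 to 1.06, counting error only). The log2 difference was -0.014 ± 0.10 (SE, n = 2 against 2; 95% interval -0.25 to 0.22; limma, adjusted p = 0.992). For the other 8 members above 0 whole fragments could not be read from the values, so no counting interval is given for them.

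PKP4 (p0071; chromosome 2, 158456964 to 158682879) is a plakophilin relative found at both adherens junctions and desmosomes. It was at 15.8 and 16.3 FPKM in the vector libraries and at 17.5 and 19.0 FPKM in the OE libraries. The groups did not overlap, yet the log2 difference of 0.17 ± 0.09 (SE, n = 2 against 2; 95% interval -0.04 to 0.39) did not pass (limma, adjusted p = 0.770). PKP1, the plakophilin of stratified epithelia, was listed at 0 in every library.

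As a share of the summed FPKM of PKP2, PKP3 and PKP4, PKP2 made up 24.6% and 19.8% in the vector libraries and 29.02% and 26.4% in the OE libraries. The PKP3 share was 37.8% and 41.5% against 33.4% and 35.3%, and the PKP4 share was between 37.6% and 38.8% in all 4. The PKP2 shares did not overlap between groups (exact two-sided permutation test, p = 0.333, the smallest that 2 libraries against 2 can give).

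**Figure D3:**
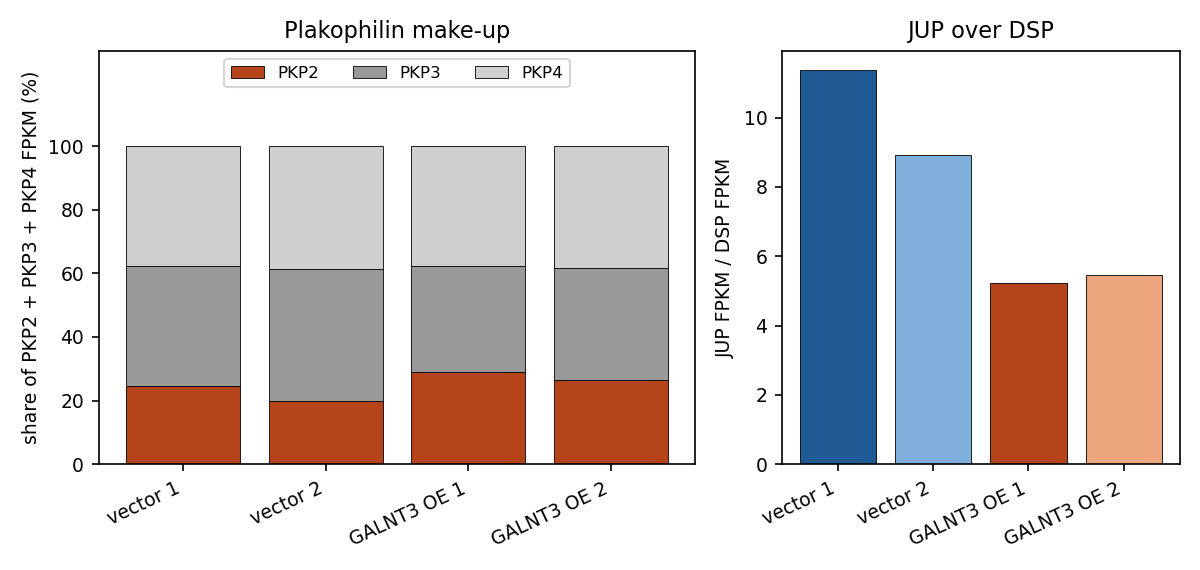
Left, the share (%) of PKP2, PKP3 and PKP4 in their summed FPKM, 1 stacked bar per library. Right, JUP FPKM divided by DSP FPKM, 1 bar per library. The PKP2 share is lowest in vector replicate 2 (19.8%) and highest in OE replicate 1 (29.02%), and JUP over DSP is above 8.9 in both vector libraries and below 5.5 in both others.

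The desmosomal cadherins lie in 1 cluster of 7 genes on chromosome 18, from 30990008 to 31549008. Of these, DSG2 (31498043 to 31549008), the desmoglein of simple epithelia, carried most of the signal. It was at 9.11 and 7.82 FPKM in the vector libraries and at 8.61 and 8.23 FPKM in the others, so that both OE libraries lay between the vector libraries. Its log2 difference was -0.0044 ± 0.11 (SE, n = 2 against 2; 95% interval -0.26 to 0.25; limma, adjusted p = 0.997).

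DSC2 (31058840 to 31102522), the desmocollin found in most desmosomes, was at 0.856 and 0.609 FPKM in the vector libraries and at 0.923 and 0.980 FPKM in the OE libraries. The groups did not overlap, but DSC2 was below the mean of 1 FPKM set for testing. With every gene above 0 tested, its log2 difference was 0.18 ± 0.09 (SE, n = 2 against 2; limma, adjusted p = 0.736). DSC3 (30990008 to 31042815), a desmocollin of basal and stratified epithelium, was listed at 0 in all 4 libraries. Among the rest of the cluster, DSG1, DSG3 and DSG4 were also listed at 0, and DSC1 did not exceed 0.0377 FPKM. The ratio of DSG2 to DSC2 was 10.6 and 12.8 in the vector libraries and 9.33 and 8.40 in the others. These ratios did not overlap between groups (exact two-sided permutation test, p = 0.333, the smallest that 2 libraries against 2 can give).

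LSR (chromosome 19, 35248330 to 35267964), the angulin that marks the corners where 3 cells meet, was at 67.0 and 65.4 FPKM in the vector libraries and at 82.5 and 83.3 FPKM in the OE libraries. Libraries of 1 group differed by less than 2 FPKM, while the group means (66.2 ± 1.1 and 82.9 ± 0.55 FPKM, SD, n = 2) were 1.25-fold apart. The log2 difference was 0.32 ± 0.08 (SE, n = 2 against 2; 95% interval 0.12 to 0.52), and LSR did not pass (limma, adjusted p = 0.310).

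MARVELD2 (chromosome 5, 69415065 to 69444330), the tricellulin that LSR recruits, was at 3.20 and 2.52 FPKM in the vector libraries and at 3.41 and 2.70 FPKM in the others. The groups overlapped, with a log2 difference of 0.07 ± 0.14 (SE, n = 2 against 2; 95% interval -0.26 to 0.40; limma, adjusted p = 0.955). LSR per MARVELD2 (ratio of FPKM) was 20.9 and 25.9 in the vector libraries and 24.2 and 30.9 in the others, which overlapped. Of the other angulins, ILDR1 was listed at 0 and ILDR2 did not exceed 0.0127 FPKM. MARVELD3, a relative of tricellulin, was at 0.207 to 0.325 FPKM.

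In GENCODE 29, antisense genes overlap PKP4, DSC2, DSG2 and LSR, and an opposite-strand pseudogene overlaps PKP2. Genes or pseudogenes on the same strand lie within PKP2, PKP4 and LSR. The library kit keeps strand, but the counting is not stated to use it, so reads of these neighbours may be counted with the 5 members. In bulk RNA, fewer cells with a transcript and less transcript per cell cannot be told apart either.

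The 4-library profile nearest to that of DSP (smallest distance between centred log2(FPKM + 1) values) belonged to the antisense transcript BOLA3-AS1, at a distance of 0.0616. FAM84B (0.0977) and ACYP2 (0.112) followed, against a median of 0.601 over all tested genes. For LSR the nearest were FLT4 (0.00966), NIN (0.0165) and PRIMA1 (0.0246), against a median of 0.348. With 4 libraries many genes share such a profile by their number alone, and none of these 6 passed the test (limma, adjusted p from 0.309 to 0.604).

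Of the genes around these junctions, 118 were listed by role, 68 were tested, and 0 passed over all genes (limma), against 0.5% of all tested genes. At an unadjusted p below 0.05 there were 8, against 7.34% of all tested genes, and 4 of them had larger and 4 smaller values in the OE libraries. The median log2 difference over the 68 genes was 0.06. PERP, a membrane protein of desmosomes that was the only other desmosomal gene tested, was at 33.7 and 28.3 FPKM in the OE libraries and at 32.8 and 26.8 FPKM in the vector libraries (limma, adjusted p = 0.963).

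The list of filament and plakin partners held keratins, the plakins PPL and EVPL, and vimentin (VIM, 696 to 746 FPKM). Of its 14 genes 9 were tested, with a median log2 difference of -0.02, and the 3 with the smallest p were keratins. KRT18, a keratin of simple epithelia, was at 350 ± 28 FPKM in the vector libraries and 429 ± 14 in the OE libraries (SD, n = 2; limma, adjusted p = 0.570). KRT7, another simple keratin, was at 7.34 ± 0.22 and 4.71 ± 0.67 FPKM (0.165). KRT15, a keratin of basal cells, was at 3.70 ± 1.2 and 1.84 ± 0.013 FPKM (0.268).

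Hemidesmosomes, which anchor keratin to the basement membrane, had 5 of 6 genes tested, with a median log2 difference of 0.04. ITGB4, the integrin chain specific to them, was at 7.52 ± 0.36 FPKM in the vector libraries and 11.3 ± 1.5 in the OE libraries (SD, n = 2; limma, adjusted p = 0.175). Its partner ITGA6 was at 32.2 ± 2.8 and 36.4 ± 0.85 FPKM (0.779), and the tetraspanin CD151 at 85.6 ± 0.75 and 83.0 ± 6.1 FPKM (0.953).

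Of 37 other tight and tricellular junction genes, 21 were tested, with a median log2 difference of 0.07. F11R, the adhesion molecule JAM-A, was at 21.2 ± 3.5 FPKM in the vector libraries and 27.7 ± 1.5 in the OE libraries (SD, n = 2; limma, adjusted p = 0.471). The scaffold TJP1 (ZO-1) was at 22.5 ± 0.47 and 25.9 ± 1.8 FPKM (0.731), and the polarity protein PARD3 at 24.3 ± 1.6 and 20.9 ± 1.8 FPKM (0.744).

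Of 15 adherens junction genes, 8 were tested, with a median log2 difference of 0.07. The nectins NECTIN1 and NECTIN2, listed under older symbols, had adjusted p of 0.780 and 0.834, and CTNNA1 (alpha-catenin) was at 116 ± 5.5 and 129 ± 1.9 FPKM in the vector and OE libraries (SD, n = 2; limma, adjusted p = 0.780). Of 8 gap junction genes 4 were tested, with a median of 0.02, and GJA1 (connexin 43), PANX1 and GJB2 had adjusted p of 0.836, 0.912 and 0.974.

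All 12 genes that handle desmosomes were tested (median log2 difference -0.04). PRKCA, the protein kinase C alpha whose activity makes desmosomes calcium-dependent, was at 5.41 and 5.39 FPKM in the vector libraries and at 3.48 and 3.60 FPKM in the OE libraries. The groups did not overlap, and PRKCA did not pass (limma, adjusted p = 0.161). The kinase SRC was at 18.7 ± 1.4 and 16.0 ± 0.51 FPKM (SD, n = 2; 0.709), and the sheddase ADAM17 at 22.3 ± 1.1 and 20.3 ± 0.55 FPKM (0.844).

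Of 13 epithelial transcription factors 4 were tested. KLF4 was at 2.98 ± 0.15 FPKM in the vector libraries and 4.62 ± 1.0 in the OE libraries (SD, n = 2; limma, adjusted p = 0.414), KLF5 at 6.95 ± 0.56 and 7.96 ± 0.48 (0.805), and ELF3 at 1.59 ± 0.42 and 0.724 ± 0.14 (0.330). GRHL2 and ESRP1, activators of epithelial junction and splicing programmes, were listed at 0. Their relatives were not all absent: ESRP2, also tested, was at 3.17 to 3.53 FPKM (limma, adjusted p = 0.944). GRHL1 was at 0.879 to 1.10 FPKM, while GRHL3 did not exceed 0.0906 FPKM. Of 6 repressors of epithelial genes 4 were tested, and TWIST1, ZEB1 and SNAI1 had adjusted p of 0.712, 0.836 and 0.938.

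**Figure D4:**
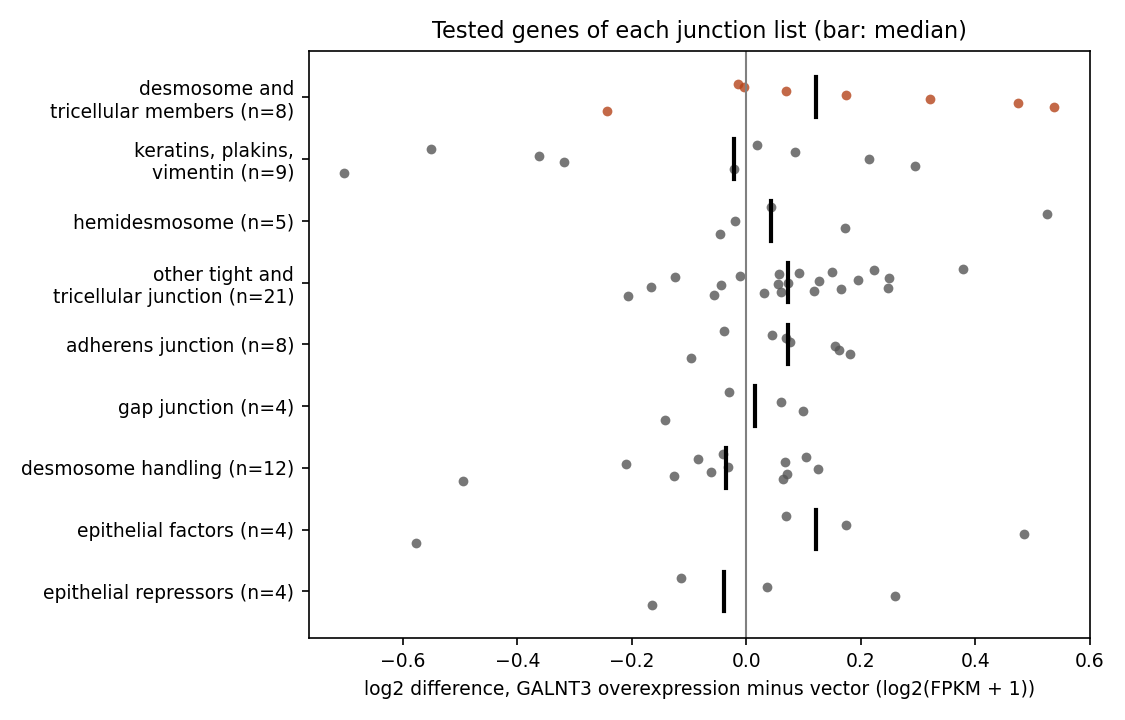
Log2 difference (OE minus vector, on log2(FPKM + 1)) of each tested gene, by list, with 1 point per gene and a bar at the median. The members (orange) run from -0.24 to 0.54, and the medians of the other lists with at least 4 tested genes lie between -0.04 and 0.12.

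Markers of other cell types were read beside these values. Endothelial markers (0 of 5 tested) summed to 0.256 to 0.319 FPKM in the vector libraries and 0.342 to 0.638 in the OE libraries. Almost all of this came from CDH5, whose row was out of alphabetical order. Lung and squamous epithelial markers (0 of 5 tested in each) did not sum above 0.0956 and 0.0230 FPKM in any library. Fibroblast markers (2 of 7 tested) summed to 14.5 and 17.9 FPKM against 19.2 and 26.8 FPKM, almost all from COL3A1 (limma, adjusted p = 0.476) and COL1A1 (0.926), with DCN listed at 0. Immune markers (1 of 6 tested) summed to 30.6 and 27.5 FPKM against 18.1 and 16.6 FPKM, mainly CD68, a lysosomal protein. CD68 had smaller values in the libraries labelled OE, with means of 28.2 ± 1.5 FPKM (vector) and 16.7 ± 0.52 FPKM (OE; SD, n = 2; limma, adjusted p = 0.0238). Its log2 difference was -0.72. CD68 lost its call when vector replicate 1 (adjusted p = 0.164) or vector replicate 2 (0.0831) was left out and when every gene above 0 was tested (0.152), with log2 differences of -0.67, -0.78 and -0.72. PTPRC, the leukocyte marker, did not exceed 0.00983 FPKM. The part of these markers in the members' values was not tested.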

How the data were processed

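The authors deposited FPKM values for 20252 gene symbols, 1 column for each library. The unit was read from the values, since the header of the deposited table names none. The submitters' processing notes list TopHat, GenomeStudio 2010.1, GRCh38 and hg19 with no roles, and the sources used here name no counting program or annotation. FPKM divides by the library's total, so a few abundant genes can move all others.

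The 10998 genes averaging 1 FPKM or more were put on the log2(FPKM + 1) scale. The groups were compared with limma 3.58.1 (R 4.3.3; lmFit, then eBayes with a trend), without further terms. Two-sided p-values were adjusted over all tested genes after Benjamini and Hochberg (threshold 0.05). There were 2 residual and 5.34 prior degrees of freedom. Relative depth came from the most common ratio of 2 libraries over 787 genes below 0.15 FPKM in every library. Other steps used scipy 1.17.1 under Python 3.11.15.

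The members and gene lists were chosen with earlier results of these data known. Named genes were GALNT3, all members, the 3 tested genes with the smallest p of each list, any gene past the threshold, and the 3 nearest profiles of DSP and LSR. Genes listed at 0 or below 1 FPKM, and PERP, VIM, PPL, EVPL, ESRP2 and RPL21, were named after their values were seen. Symbols that differ were matched through RefSeq synonyms (8 genes), and positions came from GENCODE 29 by symbol. The alternatives were other pseudocounts, filters, scalings, no trend, a replicate block, and each library left out.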

Additional observations from a re-analysis of the deposited data

How the results depend on the processing

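Over 12 alternatives no member passed the threshold (limma), except with the replicate block, where 3 did: DSP (adjusted p = 0.00966), PKP2 (0.0121) and LSR (0.0151). With the replicate block 443 of 10998 genes passed in place of 55, beside 3 of the 8 tested members. Of the 68 junction list genes 8 passed in place of 0 (KRT7, KRT15, KRT18, F11R, ITGB4, PRKCA, ELF3 and KLF4). The blocked fit has fewer residual degrees of freedom than the 2 of the main fit. The titles number the libraries 1 and 2 in both groups but do not say what a number shares. Differences between replicates 1 and 2 correlated between the groups at r = 0.218 across genes. In 7 of 9 members they went the same way in both groups, and in 5 of these replicate 1 was the higher. Summed FPKM was also larger in replicate 1 of both groups (435119 against 401366 for vector, 448194 against 427665 for OE). The share over all genes was not taken, so the count does not show that replicate numbers mark anything shared. The differences of DSP (0.31 to 0.71), PKP2 (0.33 to 0.62), LSR (0.27 to 0.34) and PKP4 (0.12 to 0.23) kept their sign in every alternative that could be fitted. DSP, MARVELD2 and GALNT3 were not tested at a mean of at least 5 FPKM. With 1 library left out, differences that changed sign ran from -0.55 to 0.064 for JUP, -0.10 to 0.094 for DSG2, -0.095 to 0.067 for PKP3 and -0.057 to 0.20 for MARVELD2. Those of PERP ran from -0.086 to 0.20, of GJB2 from -0.18 to 0.30, of CD151 from -0.12 to 0.028, of SNAI1 from -0.35 to 0.12 and of COL1A1 from -0.062 to 0.28. The count over all genes was 12 with every gene above 0 tested, 31 at a minimum mean of 5 FPKM, and 23 to 83 with 1 library left out (23 without vector replicate 1, 83 without GALNT3 overexpression replicate 2). The causes were not tested. Duplicates limit the precision, and depth is known only in relative terms.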
